A study of Mus musculus with 12 samples.

Results

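The GABA-B receptor genes Gabbr1 and Gabbr2 and the genes of their KCTD partners, Kctd8, Kctd12 and Kctd16, were followed in the striatum of drinking mice. These 5 genes of the 24421 in the count table were listed by name for their shared role. They were selected on their varenicline and saline values in these same libraries, which were already known, so every difference between those groups below is a description of these libraries and is not independent support for an effect. All 5 passed the filter on low counts. RNA was sequenced from bilateral striatum of male C57BL/6J mice, an inbred strain known for its high voluntary intake of alcohol. There were 6 libraries from animals given varenicline at 2 mg/kg, a partial agonist of nicotinic receptors, and 6 from animals given saline. Every animal in both groups drank 20% ethanol in Drinking-in-the-Dark, a limited-access test of 3 cycles of 2 days, and had a saline injection in the first cycle. The assigned injection came 30 min before the drinking session in the 2 later cycles. No group without ethanol was analysed here, and the labels give neither the age of the mice nor the number of mice behind each library, so p-values measure only the spread between these samples.

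GABA-B receptors are the G protein-coupled receptors for GABA, the main inhibitory transmitter. They form from GABBR1, which binds GABA, and GABBR2, which is needed to reach the cell surface and activates the G protein. KCTD8, KCTD12 and KCTD16 bind the tail of GABBR2 and the G protein beta-gamma subunits, and set how fast the response starts and fades; KCTD12 is the member known for making the response desensitize. The receptors open GIRK potassium channels, restrain presynaptic calcium channels and lower cyclic AMP, and in striatum they restrain glutamate release from cortical axons as well as act on local neurons.

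The promoter windows below are shown to compare the annotated starts of the genes; no start site was measured here. Each runs from 250 bases before to 50 bases after a RefSeq gene start on GRCm38.p6. Windows of 4 of the 5 genes are shown, and none is shown for Kctd16. Capitals mark a GC box (GGGCGG or CCGCCC), a full cyclic AMP response element (TGACGTCA) or its part TGACG or CGTCA, all searched on both strands; a full element also counts as containing the shorter letters. TATAAA was searched too and was found in none of the 4, against 13.6% of all windows. For Gabbr1 the window belongs to its most upstream start, and start sites inside the gene are not covered.
Gabbr1 (chr17:37045716-37046015, plus strand): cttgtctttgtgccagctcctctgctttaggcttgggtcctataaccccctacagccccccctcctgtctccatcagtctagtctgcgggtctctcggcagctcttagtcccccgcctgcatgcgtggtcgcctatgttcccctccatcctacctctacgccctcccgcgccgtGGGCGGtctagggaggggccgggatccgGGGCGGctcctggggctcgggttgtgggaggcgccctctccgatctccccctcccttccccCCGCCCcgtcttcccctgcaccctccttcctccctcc
Gabbr2 (chr4:46991665-46991964, minus strand): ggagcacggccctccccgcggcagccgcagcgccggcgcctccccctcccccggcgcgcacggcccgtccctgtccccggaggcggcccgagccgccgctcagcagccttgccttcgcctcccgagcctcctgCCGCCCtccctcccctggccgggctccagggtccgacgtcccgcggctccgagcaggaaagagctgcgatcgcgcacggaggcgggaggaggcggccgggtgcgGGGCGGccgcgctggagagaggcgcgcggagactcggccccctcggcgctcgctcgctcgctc
Kctd12 (chr14:102982588-102982887, minus strand): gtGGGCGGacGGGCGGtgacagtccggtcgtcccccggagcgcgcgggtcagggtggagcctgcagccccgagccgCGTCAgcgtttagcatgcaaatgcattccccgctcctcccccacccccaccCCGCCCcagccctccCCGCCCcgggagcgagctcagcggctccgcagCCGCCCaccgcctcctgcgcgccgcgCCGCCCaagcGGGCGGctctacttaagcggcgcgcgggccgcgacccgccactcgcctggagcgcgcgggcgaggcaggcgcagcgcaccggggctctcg
Kctd8 (chr5:69341660-69341959, minus strand): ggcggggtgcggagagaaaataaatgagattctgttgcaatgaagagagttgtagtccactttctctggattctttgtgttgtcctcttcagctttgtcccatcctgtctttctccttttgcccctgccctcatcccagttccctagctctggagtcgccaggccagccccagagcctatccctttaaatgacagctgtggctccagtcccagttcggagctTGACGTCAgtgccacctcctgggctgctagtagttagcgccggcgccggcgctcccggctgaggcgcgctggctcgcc

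Gabbr2 and Kctd12 had the windows richest in CpG, with 46 and 45 CpG dinucleotides, a count that 98.6% and 98.4% of all promoter windows did not exceed. Gabbr1 had 18 and Kctd8 14, against a median of 7 over 32851 windows. GC boxes numbered 7 in Kctd12, 3 in Gabbr1, 2 in Gabbr2 and 0 in Kctd8, and 35.7% of all windows held at least 1. The full cyclic AMP response element stood in the Kctd8 window and in none of the other 3, and 1.79% of all windows hold it. Kctd12 held the shorter letters 1 time, as 20.8% of all windows did at least 1 time. These are matches of letters, and no binding was measured here.

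Library totals ran from 13340420 to 24522349 counts with varenicline and from 14040416 to 27917715 with saline. Markers of striatal projection neurons were abundant in every library, with the 14 genes summing to between 8881 and 14323 CPM (counts scaled to a common library size) with varenicline and between 8202 and 12926 CPM with saline. Markers of cortical excitatory neurons, which are not striatal cells, were also present. In edgeR 11 of the 13 markers were lower at an unadjusted p under 0.05, against 9.63% of all tested genes, and 0 passed the adjusted threshold. All 13 had a lower mean with varenicline. They summed to between 127 and 1051 CPM with varenicline and between 656 and 1231 CPM with saline, none of them at 0, and the vesicular glutamate transporter gene Slc17a7 averaged 251 CPM with varenicline and 590 CPM with saline. The library varenicline 6 was the highest of its group, with a cortical score (mean log2 CPM of the 13 genes) of 4.91 inside the saline range of 4.09 to 5.07, while the other 5 lay between 2.20 and 3.72. Septal and pallidal markers had higher means with varenicline for 9 of 10 genes, and summed to between 69.7 and 154 CPM with varenicline and between 60.9 and 86.6 CPM with saline. The means were also higher for 14 of 14 projection neuron genes, 11 of 12 oligodendrocyte genes and 8 of 10 astrocyte genes. At an unadjusted p under 0.05 in edgeR, 8 septal and pallidal, 6 projection neuron, 5 oligodendrocyte and 4 astrocyte genes were higher. That stands against 7.26% of all tested genes, and 0 passed the adjusted threshold. Striatal interneuron genes were divided, 5 higher and 5 lower, with 1 higher and 3 lower at that p, against 7.26% and 9.63%. Choroid plexus genes had higher means for 8 of 8 but varied widely between libraries of both groups. They summed to between 77.3 and 1907 CPM with varenicline and between 68.1 and 1653 CPM with saline. Fewer cells of a type and less RNA per cell cannot be told apart in such bulk tissue. The share of tissue from outside the striatum in each library was not measured here either.

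Within each library the receptor genes were unequally expressed. On the FPKM scale, which divides by transcript length, Gabbr1 averaged 200.2 ± 6.90 with varenicline and 202 ± 17.6 with saline (SD, n = 6 each), a level above that of 97.9% of the 14491 genes with a mean FPKM of at least 0.5. Gabbr2 averaged 20.1 ± 7.86 FPKM with varenicline and 33.4 ± 5.55 FPKM with saline. The subunit that binds GABA was thus the more abundant transcript in all 12 libraries, by 3.00 ± 0.55 on the log2 FPKM scale (SD). A two-sided exact sign-flip permutation gave p = 0.000488, the smallest that 12 libraries can give. Over 4 neighbouring pairs the adjusted p of that permutation was 0.000977. The pairs were taken from the order of these same values.

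Of the partners, Kctd12 averaged 18.2 ± 1.79 FPKM with varenicline and 14.4 ± 2.35 FPKM with saline. Kctd16 averaged 10.1 ± 0.952 FPKM with varenicline and 13.4 ± 1.90 FPKM with saline. Kctd8 was the scarcest, at 5.17 ± 0.922 FPKM with varenicline and 4.31 ± 0.295 FPKM with saline. In order of level the 5 genes thus ran Gabbr1, Gabbr2, Kctd12, Kctd16, Kctd8 over all libraries. The middle of that order was not the same in both groups. Neighbouring pairs were set by this order, so each p comes from the values that chose its pair. Each p also pools both groups and does not test an order held in each of them. Gabbr2 exceeded Kctd12 in 2 of 6 varenicline libraries, with a mean log2 difference of 0.08 ± 0.62, and in 6 of 6 saline libraries, with 1.21 ± 0.47 (all 12: exact permutation p = 0.0215, the same after adjustment). Kctd12 exceeded Kctd16 in 6 of 6 varenicline libraries, by 0.85 ± 0.20, and in 5 of 6 saline libraries, by 0.11 ± 0.11 (all 12: exact permutation p = 0.00146, adjusted p = 0.00195). With CPM per kilobase in place of FPKM, Kctd12 and Kctd16 were level with saline, with a mean log2 difference of -0.017 and the order held in 3 of 6 libraries. Kctd16 exceeded Kctd8 in all 12 libraries, by 1.30 ± 0.44 (exact permutation p = 0.000488, adjusted p = 0.000977). Levels as CPM per kilobase rest on the annotation behind the counts. For Kctd16 it holds 1365 exonic bases, or 39.3% of the 3477 in GENCODE vM21. The share was 57.8% for Gabbr1, 59.8% for Gabbr2, 85.7% for Kctd8 and 100% for Kctd12. Ratios of CPM per kilobase between the genes carry these lengths too. The lengths behind the deposited FPKM values were not given, so levels and ratios of FPKM rest on lengths not known here.

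**Figure D1:**
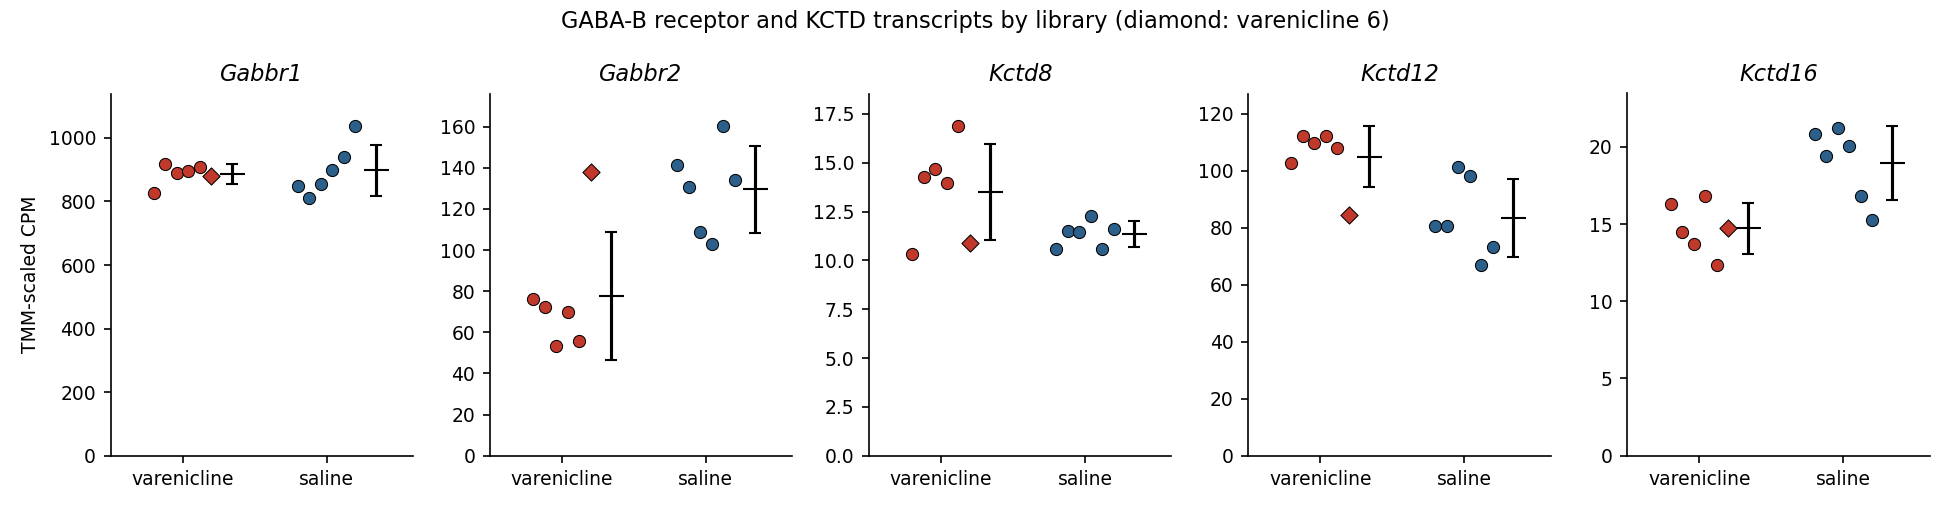
TMM-scaled CPM (y axis, starting at 0) of the 5 genes in each of the 6 varenicline and 6 saline libraries; points are libraries, the diamond is varenicline 6, and bars give mean and SD. Gabbr1 overlaps widely between the groups, whereas 5 of 6 varenicline libraries lie below every saline library for Gabbr2 and above every saline library for Kctd12, with varenicline 6 among the saline values of both.

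Gabbr1 (ENSMUSG00000024462, chromosome 17, 37045966 to 37074305, plus strand, mm10; 23 exons) encodes the subunit that binds GABA. Its lowest, median and highest values were 826, 893 and 919 CPM with varenicline and 812, 876 and 1036 CPM with saline. The varenicline values lay wholly inside the saline range. The log2 fold change, varenicline minus saline, was -0.019 (SE 0.058, edgeR quasi-likelihood test, Benjamini-Hochberg adjusted p = 0.899 over 15148 genes). The sign turned to positive with limma-voom and sample weights (0.041), without varenicline 1 (0.0011) and without saline 6 (0.026), the library with the highest Gabbr1 value. The counts do not separate the isoforms of Gabbr1 with and without the sushi domains.

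Gabbr2 (ENSMUSG00000039809, chromosome 4, 46663898 to 46991714, minus strand; 19 exons), the subunit that engages the G protein and carries the KCTD binding site, had the largest difference of the 5 genes. Its lowest, median and highest values were 53.1, 71.3 and 138 CPM with varenicline and 103, 132 and 160 CPM with saline. The groups overlapped through varenicline 6 alone: its 138 CPM stood among the saline values, and the next highest varenicline library had 76.2 CPM. EdgeR gave a log2 fold change of -0.74 (SE 0.19, adjusted p = 0.138). All 27 alternatives kept the sign, with adjusted p from 0.000549 to 0.965. Without varenicline 6 edgeR gave -0.98 (SE 0.12, adjusted p = 0.000549). When the cortical score entered the model the estimate was -0.23 (SE 0.12, edgeR adjusted p = 0.933), and with the score but without varenicline 6 it was -0.47 (SE 0.16, edgeR adjusted p = 0.335). Without that library the scores of the groups did not overlap, so for every gene such a fit cannot tell the score and the treatment apart. With all libraries, varenicline 6 was the only varenicline library inside the saline range of scores, so that fit leans on it.

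Kctd12 (ENSMUSG00000098557, chromosome 14, 102976581 to 102982637, minus strand; 1 exon), the desensitizing partner, had the opposite direction. Its lowest, median and highest values were 84.3, 109 and 112 CPM with varenicline and 66.9, 80.5 and 101 CPM with saline. Again the overlap came from varenicline 6 alone, the lowest of its group, since the other 5 lay between 103 and 112 CPM. EdgeR gave a log2 fold change of 0.33 (SE 0.099, adjusted p = 0.147), and 0.40 (SE 0.091, edgeR adjusted p = 0.0122) without varenicline 6. Adjusted for the cortical score it was 0.17 (SE 0.12, edgeR adjusted p = 0.949), and 0.32 (SE 0.17, edgeR adjusted p = 0.443) with that adjustment and without varenicline 6. Markers of oligodendrocytes summed to between 11204 and 14761 CPM with varenicline and between 11843 and 14654 CPM with saline, and with their score as a covariate the Kctd12 value was 0.27 (SE 0.13, edgeR adjusted p = 0.658). Of the exonic bases of Kctd12, 3805 (62.8%) are shared with the long noncoding gene Gm26778 on the opposite strand in GENCODE vM21, and no source used here says whether strand was counted, so reads of the 2 genes cannot be told apart.

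Kctd16 (ENSMUSG00000051401, chromosome 18, 40258361 to 40531184, plus strand; 2 exons) encodes a partner that binds the receptor without the desensitizing action of KCTD12. Its lowest, median and highest values were 12.3, 14.6 and 16.8 CPM with varenicline and 15.3, 19.7 and 21.2 CPM with saline. The groups overlapped through saline 6 alone, the lowest of its group at 15.3 CPM, and here varenicline 6, at 14.7 CPM, lay in the middle of its own group. For this gene edgeR gave a log2 fold change of -0.36 (SE 0.096, adjusted p = 0.138), and -0.35 (SE 0.10, edgeR adjusted p = 0.0405) without varenicline 6. Adjusted for the cortical score it was -0.24 (SE 0.13, edgeR adjusted p = 0.933), and with that adjustment and without varenicline 6 it was -0.038 (SE 0.18, edgeR adjusted p = 0.941). An antisense gene shares 135 exonic bases (9.89%) with it.

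Kctd8 (ENSMUSG00000037653, chromosome 5, 69109285 to 69341709, minus strand; 2 exons), a partner with restricted expression in the brain, had between 140 and 351 counts with varenicline and between 148 and 339 counts with saline. Its lowest, median and highest values were 10.3, 14.1 and 16.9 CPM with varenicline and 10.6, 11.5 and 12.3 CPM with saline. Varenicline 1 and 6 lay near the saline values, and the other 4 varenicline libraries lay above all of them, so the spread was wider with varenicline (SD 2.46 CPM) than with saline (SD 0.658 CPM). By edgeR its log2 fold change was 0.25 (SE 0.11, adjusted p = 0.248). In the model with the cortical score the sign turned, to -0.023 (SE 0.11, edgeR adjusted p = 0.996).

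In the edgeR fit of all 12 libraries 0 of the 5 genes passed an adjusted p of 0.05, where 0% of all tested genes were called higher and 0% lower. With p below 0.05 before adjustment, 2 of the 5 stood higher and 2 stood lower, against 7.26% and 9.63% of all tested genes, a share from which nothing is read because the genes were listed with these values known. DESeq2 called 1 higher (Kctd12) and 2 lower (Gabbr2, Kctd16), where it called 1.11% of the genes with an adjusted p higher and 1.98% lower. Limma-voom with sample weights called 2 higher and 2 lower, all but Gabbr1, against 4.82% and 9.04% of all genes. EdgeR without varenicline 6 called Kctd12 higher and Gabbr2 and Kctd16 lower, against 3.55% and 7.14% of all genes; before adjustment it had 2 of the 5 on each side, against 12.5% and 13.6%. In the model with the cortical score edgeR called 0 of the 5 with that library, against 0.0462% of all genes higher and 0% lower, and 0 of the 5 without it, against 0% in each direction. Before adjustment that model had 0 of the 5 with p below 0.05 with the library, against 3.17% of all genes higher and 2.12% lower, and without it 0 higher and 1 lower, Gabbr2, against 6.52% and 5.79%. The groups did not overlap for 0 of the 5 genes, against 0.429% of all tested genes on the higher side and 0.33% on the lower side. Without varenicline 6 they did not overlap for 1 gene on each side, Kctd12 and Gabbr2, against 2.09% and 5.29%.

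**Figure D2:**
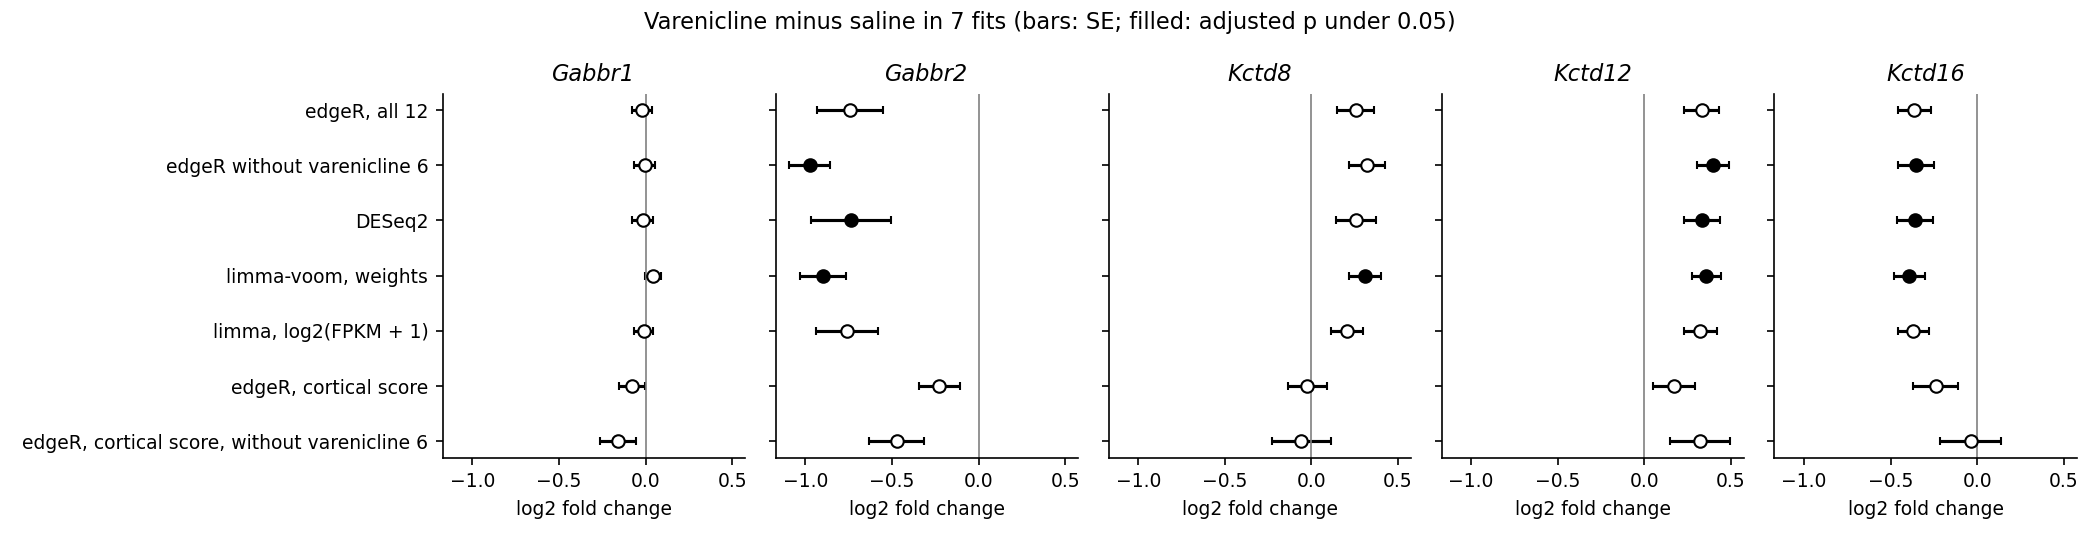
Log2 fold change, varenicline minus saline (x axis), of each gene in 7 of the 28 fits; points are estimates, bars their SE, and filled points have an adjusted p under 0.05. Gabbr2 runs from -0.98 without varenicline 6 to -0.23 in the model with the cortical score, and Kctd8 lies at or below 0 in both fits with that score.

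The relation to the cortical markers was then measured inside each group, where the difference between varenicline and saline does not enter. In the 6 varenicline libraries Gabbr2 ranked in the same order as the cortical score, with a Pearson r of 0.98 (two-sided exact permutation p = 0.00139, adjusted p = 0.0139 over 10 relations) and a Spearman rho of 1 (exact permutation p = 0.00278, adjusted p = 0.0278). Without varenicline 3 and 6, which lay farthest from the median score, r was 0.99 over the remaining 4 libraries, too few to pass after adjustment (exact permutation p = 0.0417, adjusted p = 0.417). In the 6 saline libraries, whose scores spanned a narrower range, r was 0.46 (exact permutation p = 0.343, adjusted p = 0.436) and rho 0.60 (exact permutation p = 0.242, adjusted p = 0.483). Without saline 4 and 6 the saline r was 0.31. The difference between the groups in r was not tested. How many of all tested genes reach such an r with the score was not computed, so the relation is not shown to be particular to Gabbr2.

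The other 8 relations did not pass after adjustment (exact permutation adjusted p of r from 0.222 to 0.718). Kctd8 had negative values in both groups, with r of -0.80 with varenicline and -0.76 with saline. For Kctd12 r was -0.80 with varenicline and -0.16 with saline, and without varenicline 3 and 6 the varenicline value was -0.23. Kctd16 had 0.47 in both groups, but 0.19 with varenicline and 0.28 with saline on the log2(FPKM + 1) scale, and 0.80 with varenicline without varenicline 3 and 6. Gabbr1 had -0.34 with varenicline and -0.69 with saline, and without saline 4 and 6 the saline value was -0.37. For Kctd8 the saline value without those 2 libraries was -0.46. Scores and gene values share the same libraries and the same scaling.

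**Figure D3:**
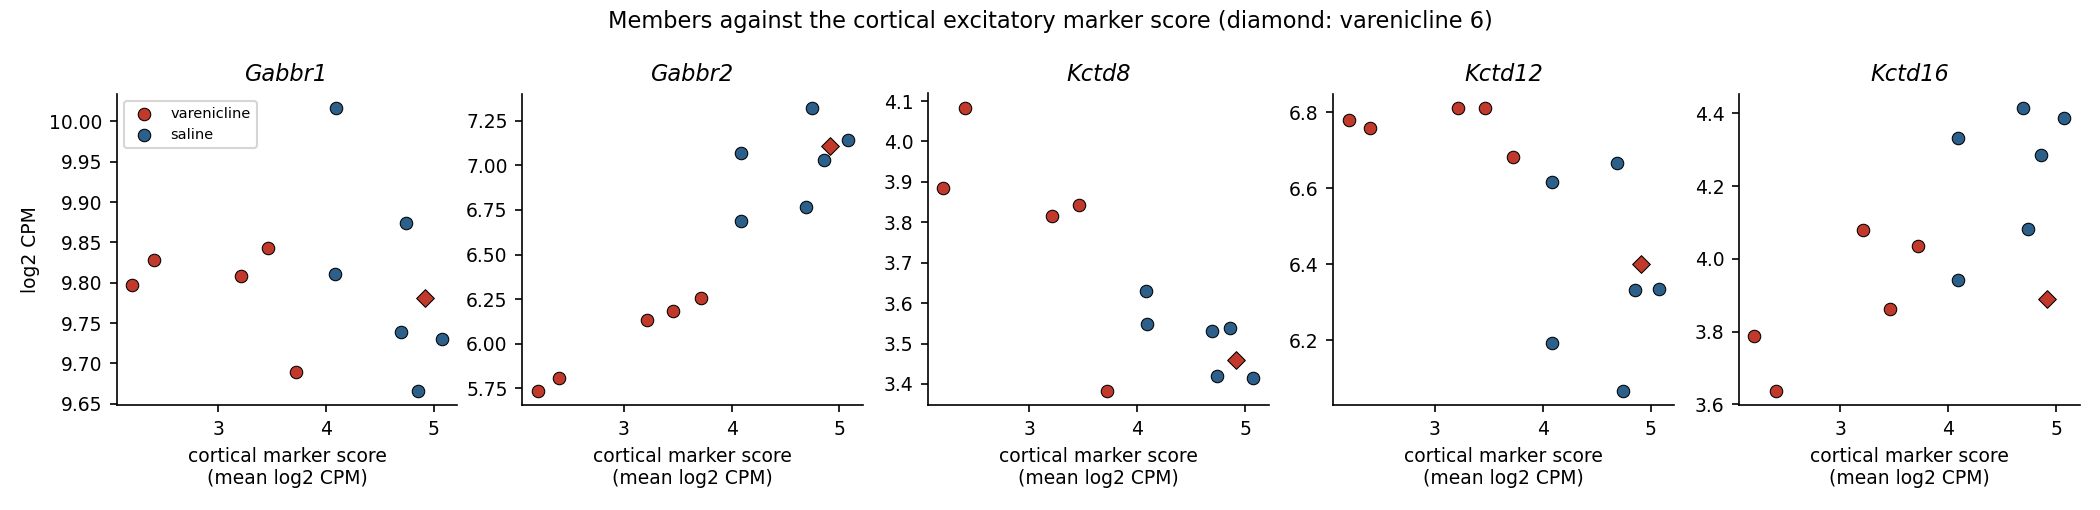
Log2 CPM of each gene (y axis, scaled per panel) against the mean log2 CPM of 13 cortical excitatory markers (x axis) in 12 libraries; the diamond is varenicline 6. For Gabbr2 the varenicline libraries run upward with the score, from 5.73 to 7.11 log2 CPM, and varenicline 6 lies among the saline points, whereas for Kctd16 it lies below all of them.

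Because receptor subunits and partners assemble together, their transcripts were also compared as ratios of FPKM inside each library, where the depth of the library cancels. These ratios are given without a test, and the ratio of Kctd16 to Kctd12 and the shares of the KCTD sum were chosen after the values were seen. Gabbr2 to Gabbr1 was 0.101 ± 0.0401 with varenicline and 0.166 ± 0.0274 with saline (SD, n = 6 each). Varenicline 6, at 0.178, was the only library of its group inside the saline range of 0.132 to 0.197, and without it the mean was 0.0853 ± 0.0147 (n = 5). Kctd12 to Gabbr2 was 1.01 ± 0.337 with varenicline and 0.452 ± 0.147 with saline. Varenicline 6, at 0.416, was again within the saline range, and the other 5 lay between 0.911 and 1.35. Kctd8 to Gabbr2 was 0.291 ± 0.119 with varenicline and 0.133 ± 0.0308 with saline, with the same library inside the saline range. Kctd16 to Gabbr2, at 0.548 ± 0.149 with varenicline and 0.416 ± 0.118 with saline, overlapped more widely, since both genes had lower values with varenicline.

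The ratio of Kctd16 to Kctd12, picked after the values were seen, did not overlap between the groups. Kctd16 to Kctd12 was 0.559 ± 0.0775 with varenicline, from 0.462 to 0.661, and 0.931 ± 0.0733 with saline, from 0.854 to 1.04. It was the only ratio of the 5 computed in which the groups did not overlap, and the share of other gene pairs with such a pattern was not computed. The pair joins a gene with a lower mean and a gene with a higher mean in these same libraries, so nothing is read from the separation. In varenicline 6 the ratio was 0.661, the highest of its group and below the lowest saline value of 0.854. How this ratio relates to the cortical score was not tested. With CPM per kilobase the groups also did not overlap, at 0.507 to 0.775 with varenicline and 0.908 to 1.15 with saline. Of the summed FPKM of the 3 partners, Kctd12 made up 54.3 ± 1.62% with varenicline and 44.8 ± 1.71% with saline, and Kctd16 made up 30.3 ± 3.38% with varenicline and 41.6 ± 1.98% with saline. Kctd8 made up 15.4 ± 2.19% with varenicline and 13.6 ± 1.54% with saline, and its groups overlapped.

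**Figure D4:**
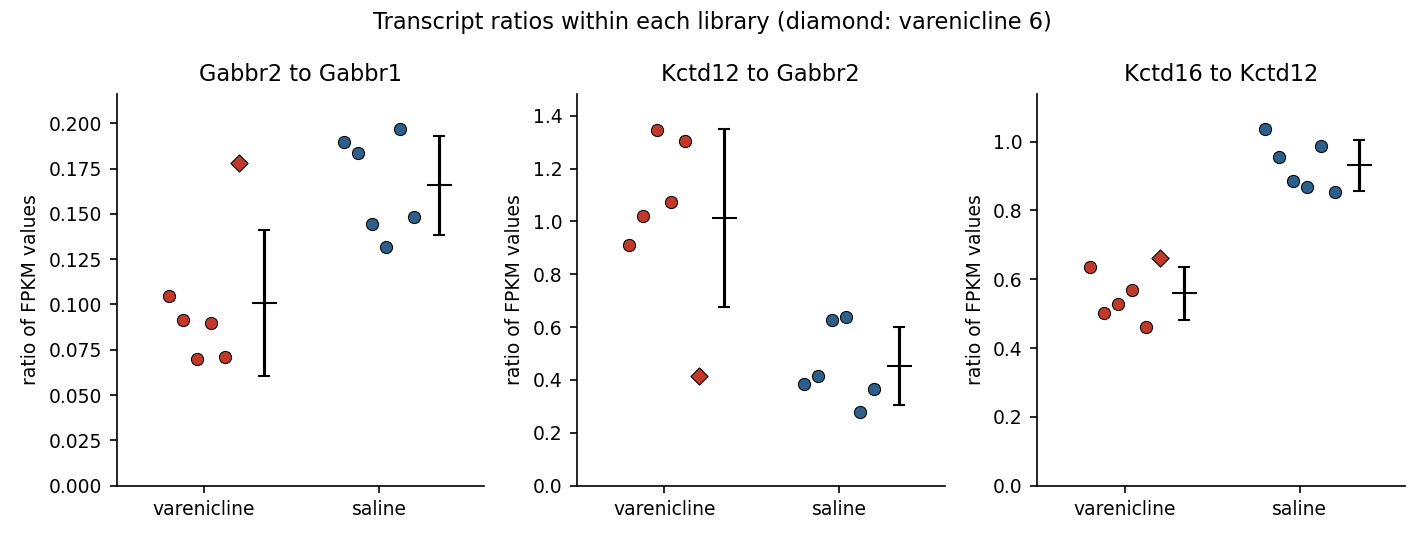
Ratios of FPKM values inside each library (y axes, starting at 0) for Gabbr2 to Gabbr1, Kctd12 to Gabbr2 and Kctd16 to Kctd12 in 6 varenicline and 6 saline libraries; bars give mean and SD, and the diamond is varenicline 6. That library lies among the saline libraries in the first pair of panels and is the highest varenicline library, at 0.661, in the panel of Kctd16 to Kctd12.

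Other genes of GABA-B signalling were read from lists that were written with earlier results of these data known. Of 12 effector genes, the GIRK and calcium channels and adenylyl cyclases, 10 had a lower mean with varenicline, 8 of them at an unadjusted p under 0.05, against 9.63% of all tested genes, and 0 passed the adjusted threshold in edgeR; the median log2 fold change was -0.44, against 0.0074 over all tested genes. The smallest p belonged to the P/Q-type calcium channel gene Cacna1a (-0.25, from means of 152 CPM with varenicline and 181 CPM with saline) and the cyclase gene Adcy2 (-0.37). The GIRK subunit genes Kcnj9 and Kcnj3 followed, with -0.68 and -0.64. In the model with the cortical score 0 of 12 had an unadjusted p under 0.05, against 3.17% of all genes higher and 2.12% lower. The median of the list was -0.052 in that model, and -0.58 without varenicline 6. Without that library 7 genes of the list passed the adjusted threshold, where 3.55% of all genes were called higher and 7.14% lower.

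Of 12 G protein subunit genes, 8 had a lower mean and 4 a higher mean, with 4 lower and 0 higher at p below 0.05 before adjustment, against 9.63% and 7.26% of all tested genes, 0 past the adjusted threshold, and a median log2 fold change of -0.10. The 4 were Gnb4 (-0.40), Gng2 (-0.57), Gng3 (-0.35) and Gnb1 (-0.13), beta and gamma subunits; of the other beta and gamma genes of the list, Gng7 (0.25), Gnb5 (0.11) and Gnb2 (0.061) had higher means and Gng4 (-0.24) a lower one. In the model with the cortical score 0 of 12 reached that p, against 3.17% of all genes higher and 2.12% lower. Without varenicline 6 there were 4 lower and 2 higher at that p, against 13.6% and 12.5% of all genes. In that fit 3 passed the adjusted threshold, where 3.55% of all genes were called higher and 7.14% lower. Among 5 regulators of GIRK signalling, 2 were lower at an unadjusted p under 0.05 with all 12 libraries, against 9.63% of all tested genes. They were Rgs7 (-0.18) and Rgs6 (-0.39), both of which speed the closing of GIRK channels. Neither passed after adjustment in that fit. Without varenicline 6 there were 2 lower and 2 higher at that p, against 13.6% and 12.5% of all genes, and 2 of the 5 passed the adjusted threshold. In the model with the cortical score Rgs6 had 0.0080 and Rgs7 -0.11, and 3 of the 5 were lower. In it 1 was lower at an unadjusted p under 0.05, against 2.12% of all genes. Rgs4, another such regulator, had 0.10, and -0.18 in that model. Rgs7bp, which anchors such regulators at the membrane, had 0.15, and Snx27, a sorting protein of GIRK channels, had 0.089.

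Of 6 further proteins that bind GABA-B receptors, 4 genes had a lower mean. Of these 6, only the membrane fusion ATPase gene Nsf was lower at an unadjusted p under 0.05, against 9.63% of all tested genes. Nsf had a log2 fold change of -0.21, from 580 CPM with varenicline and 670 CPM with saline. It did not pass after adjustment (edgeR adjusted p = 0.138). The median of the 6 was -0.068. In the model with the cortical score it was -0.088, with 5 of 6 lower. In that model 1 was lower at an unadjusted p under 0.05, against 2.12% of all genes. Nsf had -0.079 in it, and the lowest value of the list was -0.19 for Jakmip1. Without varenicline 6, 1 of the 6 passed the adjusted threshold, where 3.55% of all genes were called higher and 7.14% lower. App and Pianp, whose products bind the sushi domains of GABBR1, had -0.084 and -0.051, whereas Ajap1, whose product binds them too, had 0.054. Jakmip1, which links the receptor to microtubules, had -0.11. Kctd12b, the closest relative of Kctd12 in the mouse, was scarce, at 6.28 CPM with varenicline and 5.81 CPM with saline, with a log2 fold change of 0.10. Of 18 KCTD family genes outside the receptor's partners, 17 were tested and Kctd19, with 4 counts over all libraries, was not. Among the 17, 9 had a higher and 8 a lower mean, and the median was 0.016. Only Kctd2 was lower at an unadjusted p under 0.05, against 9.63% of all tested genes (-0.16, edgeR adjusted p = 0.257). Kctd5, Kctd10 and Kctd11 followed, with 0.093, -0.068 and 0.18.

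**Figure D5:**
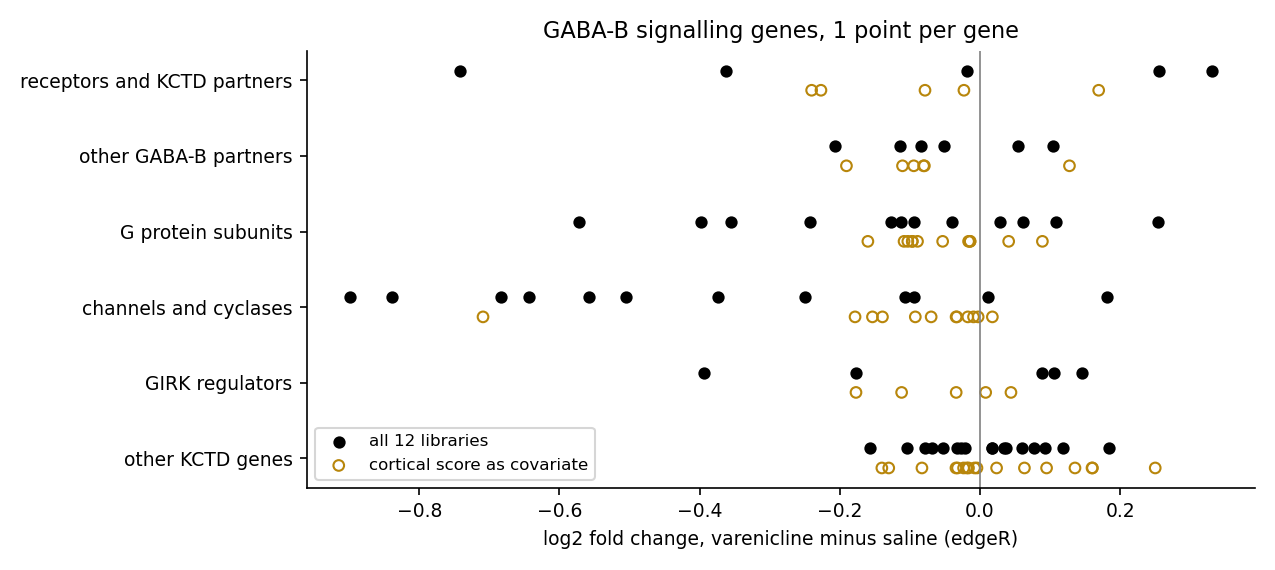
Log2 fold change, varenicline minus saline, in edgeR (x axis) for each tested gene of 6 lists, 1 point per gene; filled points come from all 12 libraries and open points from the fit with the cortical score as a covariate. The channels and cyclases lie mostly below 0 with a median of -0.44 and near 0, at -0.052, with the covariate, and the other KCTD genes lie around 0 in both.

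The genes whose values followed each member most closely were sought over the 12 libraries after removal of each group's mean, by Pearson r of log2 CPM, as a description with no test. For Gabbr2 they were Dlc1, Zcchc17, Ndrg3, Rims1 and Hivep1, with r from 0.97 to 0.98. All 5 had a lower mean with varenicline, with log2 fold changes from -0.54 for Rims1 to -0.099 for Zcchc17. The median over all tested genes was 0.0074. For Kctd12 they were Mgea5, Gabra2, Rfx3, Snx27 and Gpm6b, with r from 0.95 to 0.97. Their log2 fold changes ran from 0.071 for Mgea5 to 0.25 for Rfx3, and Gabra2, a GABA-A receptor subunit gene, had 0.19. For Gabbr1 they were Tbl1x, Eno2, Coro2b, Rhog and Phldb1 (r from 0.95 to 0.98), with log2 fold changes from -0.093 to 0.053. For Kctd8 they were Ptgr2, Cldn23, Nlgn1, Ilvbl and Hebp1 (0.90 to 0.95), and for Kctd16 Tapt1, Fam160a2, Nufip2, Hectd2 and Chl1 (0.87 to 0.93). In the Kctd8 list Cldn23 had a log2 fold change of -0.31, opposite to Kctd8, and the others ran from 0.0063 to 0.14. In the Kctd16 list Tapt1 (0.024), Fam160a2 (0.023), Nufip2 (0.19) and Hectd2 (0.24) went opposite to Kctd16, and Chl1 had -0.14. None of these lists of 5 held another member.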

How the data were processed

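Gene counts were deposited by the authors as whole numbers per gene, not normalized, with the length and number of exons of each gene per the file headers. FPKM values and a signal of counts scaled by Cuffnorm were also deposited by the authors. The submitters' processing notes name TopHat2, Trimmomatic, featureCounts, FastQC, Cuffdiff, Cuffnorm and DESeq2, and the build mm10. Versions, annotation and strand use were not given in the sources used here. Per the labels' protocols, reads were single and 150 nt long. All 12 columns of each table were matched to samples by the letter in the title.

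From the 24421 genes, 15148 passed filterByExpr (edgeR 4.0.16). TMM scaling preceded the quasi-likelihood F test of edgeR for varenicline against saline; Benjamini-Hochberg adjustment covered every tested gene, at a threshold of 0.05. The SE is the log2 fold change divided by the square root of F. Log2 CPM used a prior count of 2. Correlations used all 720 pairings, and level orders all 4096 sign assignments. Alternatives used DESeq2 1.42.0, limma 3.58.1 on log2 of FPKM plus 1 or 0.1 (FPKM of at least 0.5 in 6 libraries, or no filter) and of Cuffnorm values plus 1 (at least 10 in 6 libraries), other scalings and filters, marker scores as covariates, and each library left out. The tests were tried on simulated data. R 4.3.3 and matplotlib 3.10.9 were used. Promoters came from RefSeq on GRCm38.p6, the build that mm10 denotes, and overlaps from GENCODE vM21.

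The 5 genes, the lists and the tests were chosen with earlier results of these data known. Named genes are the 5 members, up to 4 per list with the smallest unadjusted p, and the 5 most alike each member, without predicted genes; Slc17a7, Kctd12b, Kctd19, Ajap1, Rgs4, Gng4, Gng7, Gnb2 and Gnb5 were singled out after their values were seen. The lowest chi-square per degree of freedom over 66 pairs of libraries was 5.71, so none was a copy of another within sampling noise. The 27 symbols that a spreadsheet had turned into dates were restored by identifier.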

Additional observations from a re-analysis of the deposited data

Results flagged for a closer look

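Among 28 sets of 6 values examined (genes, ratios and marker scores by group), 4 had an extreme value set apart from its group; at a chance rate of 1 in 20, 1.4 such sets would arise. In 3 of the 4 that library was varenicline 6. The sets come from the same 12 libraries and are not independent, so nothing is read from 4 against 1.4. Its Kctd12 value of 6.40 log2 CPM was the lowest of the varenicline group, whose other libraries lay between 6.68 and 6.81. Its Gabbr2 to Gabbr1 ratio of 0.178 was the highest of that group, whose others lay between 0.0699 and 0.104. Its oligodendrocyte score of 8.34 log2 CPM was the lowest, with the others between 8.63 and 8.75. Among saline libraries, saline 6 had an oligodendrocyte score of 8.64, above the others at 8.39 to 8.46.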

How the results depend on the processing

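Under other scalings, other filters, FPKM, Cuffnorm values and the septal or oligodendrocyte score as covariate, each gene kept its direction and its side of the threshold. The sizes moved with the scores. With the oligodendrocyte score Gabbr2 was -0.51 in place of -0.74, Kctd16 -0.27 in place of -0.36 and Kctd12 0.27 in place of 0.33. Kctd8 was 0.13 in place of 0.25 and Gabbr1 -0.078 in place of -0.019. With the septal score Gabbr2 was -0.65, Kctd16 -0.33, Kctd12 0.38, Kctd8 0.34 and Gabbr1 -0.0086. DESeq2 moved Gabbr2 (-0.74), Kctd12 (0.33) and Kctd16 (-0.36) past the threshold, and limma-voom with sample weights moved these, at -0.90, 0.36 and -0.39, and Kctd8, at 0.31. Gabbr1 turned to 0.041 with limma-voom. Kctd8 turned to -0.023 with the cortical score, -0.060 with that score and without varenicline 6, and -0.016 with DESeq2 and that score. Leaving out each library gave ranges of -0.046 to 0.026 for Gabbr1, -0.98 to -0.65 for Gabbr2, 0.19 to 0.32 for Kctd8, 0.27 to 0.40 for Kctd12 and -0.42 to -0.31 for Kctd16. Varenicline 6 was the library whose removal brought Gabbr2, Kctd12 and Kctd16 past the threshold. The number of genes called was 0 with edgeR, 387 with DESeq2, 2099 with limma-voom, 7 with the cortical score, 2 with the oligodendrocyte score, 26 with DESeq2 and the cortical score, and from 0 to 1628 without each library, of which 1628 was without varenicline 6 and 4 without varenicline 2. With the cortical score the list medians were -0.052 for effectors and -0.034 for GIRK regulators, against -0.44 and 0.089 without it; this was chosen after seeing the data. The varenicline correlation of Gabbr2 was 0.99 over 4 libraries, too few to pass. With CPM per kilobase the saline ratio of Kctd16 to Kctd12 was 1.02. The cause of these changes was not tested beyond the fits named. No paired analysis was possible because the labels number every library as the same replicate and replicate numbers here follow the order of deposition.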
